A study of Mus musculus with 7 samples.

Results

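The proteasome subunit genes of mouse eosinophils are described here in cells sorted from muscle. The genes were taken by symbol, as every Psma, Psmb, Psmc, Psmd or Psme symbol that ends in a number, without the immunoproteasome genes Psmb8, Psmb9 and Psmb10. They numbered 40 of the 24421 genes in the count table, and comprised 16 core genes (8 alpha and 8 beta), 20 regulatory genes (6 ATPases and 14 non-ATPases) and 4 activator genes. RNA was sequenced from 3 libraries labelled WT and 4 labelled IL5-Tg, a genotype named for the cytokine IL-5, on which eosinophils depend for their growth. All 7 libraries came from muscle 3 days after a treatment given only as ntx, with no expansion of that name. The cells were sorted as CD45-positive and SiglecF-positive, negative for NK1, Ly6G and CD3e, with a CD11b gate that the labels spell CD11bing. The series title concerns mdx mice, a model of muscular dystrophy, but the sample labels give no mdx allele, no age, no strain and no promoter for the transgene, and leave unstated if each library is from a mouse of its own. The p-values therefore measure the spread between these libraries, which may be technical.

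The proteasome is the large protease that breaks down proteins tagged with ubiquitin. Its core particle is a barrel of alpha rings, which form the gates, and beta rings, which hold the cutting sites in Psmb5, Psmb6 and Psmb7. The regulatory particle binds ubiquitin chains, removes them and unfolds the substrate with a ring of ATPases. Activators of the Psme family open the barrel without a need for ubiquitin. Transcription of many subunit genes is known to be raised together by the factor encoded by Nfe2l1 when proteasome activity runs short.

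Total counts were 11581365 to 20231509 per library, and 49380 to 101269 of these reads fell on the 40 genes. Small counts were distributed unevenly. Among counts up to 40, the most frequent over genes was taken, smoothed over a window of 5. It was 5, 8 and 12 in the 3 WT columns and 1, 1, 1 and 4 in the IL5-Tg columns. With counts divided by that value 0 of 38 tested members were called. Of all 11003 genes tested in that way, 72 were called higher and 28 lower in IL5-Tg. Il5 was at 338 to 447 CPM (reads relative to the total of the library, as scaled by the TMM method) in the IL5-Tg libraries, 1.39 CPM in WT replicate 1 and 0 reads in the other WT libraries. The 5 eosinophil markers (Siglecf, Ccr3, Il5ra, Epx, Prg2) had summed levels of 1080 to 2380 CPM in WT and 1660 to 3160 CPM in IL5-Tg libraries. The sum joins markers whose log2 fold changes of IL5-Tg over WT went both ways. They were 2.76 for Prg2, 1.59 for Epx, 0.43 for Siglecf, -0.59 for Ccr3 and -0.97 for Il5ra. Of these only Prg2 passed (adjusted p = 0.016 in edgeR). The T cell markers summed to at most 1.78 CPM and the 4 B cell markers to at most 8.79 CPM. The 8 macrophage and monocyte markers summed to 3560 to 5230 CPM in WT and 4690 to 5760 CPM in IL5-Tg libraries. Within that sum, C1qa, C1qb, C1qc, Mrc1 and Cd68 were each lowest in WT replicate 3 (68.4, 99.8, 48.8, 46.7 and 109 CPM). Adgre1 was highest there, at 2459 CPM, and Csf1r and Fcgr1 lay within the range of the other libraries. The 6 fibroblast markers summed to 12.8 CPM in WT replicate 3, against 1760 to 4300 CPM in the IL5-Tg libraries and 2710 and 2910 CPM in the other WT libraries. Pdgfra, Lum, Myh4 and Myh1 had 0 reads in WT replicate 3. The 6 muscle fibre markers summed to 50.3 to 262 CPM in WT and 332 to 1010 CPM in IL5-Tg libraries, the 4 neutrophil markers analysed to 11.2 to 340 CPM and 16.6 to 28.7 CPM, and the 5 cell cycle genes to 130 to 289 CPM and 180 to 357 CPM. The part of these other cells in the levels below was not tested. In RNA from sorted pools, fewer cells of a type and less RNA per cell cannot be told apart.

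No proteasome subunit gene passed the test for a difference between IL5-Tg and WT eosinophils. Of the 40 genes 39 passed the filter on low counts. Among them 0 were called higher and 0 lower at an adjusted p under 0.05 by edgeR's quasi-likelihood test, where 0.338% of all 12428 tested genes were called higher and 0.0724% lower. Their smallest adjusted p was 0.739, that of Psmb5. Before adjustment 0 of the 39 had a p under 0.05, against 1123 of all tested genes, and DESeq2 and limma-voom also called 0. The median log2 fold change was 0.04 over the 39 genes and 0.03 over all tested genes. The sign was positive for 22 genes and negative for 17. With the number that starts the sample titles, whose meaning the labels do not give, as a term in the fit, 13 values were positive and the median was -0.08. Start 81 holds IL5-Tg libraries only and start 87 a WT library only. The genotype estimate in that fit therefore rests on starts 82 and 86, with 1 WT and 1 IL5-Tg library each.

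The fitted intervals show how large a change these libraries could still hold. For 33 of the 39 genes the 95% interval of the fold change lay within 2-fold in either direction, which was so for 29.3% of all tested genes. Within 1.5-fold it was 6 of 39. Proteasome genes are abundant, and abundant genes have narrower intervals, so genes of like level are the closer comparison. Among 5393 genes between 21.9 and 392 CPM, the range of the members other than Psma8, 53.5% had an interval within 2-fold. The median size of the log2 fold change was 0.29 in those genes and 0.159 in the 39 members. Without WT replicate 2 the count within 2-fold was 22 of 39, while the share of all tested genes was 20.9%.

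**Figure D1:**
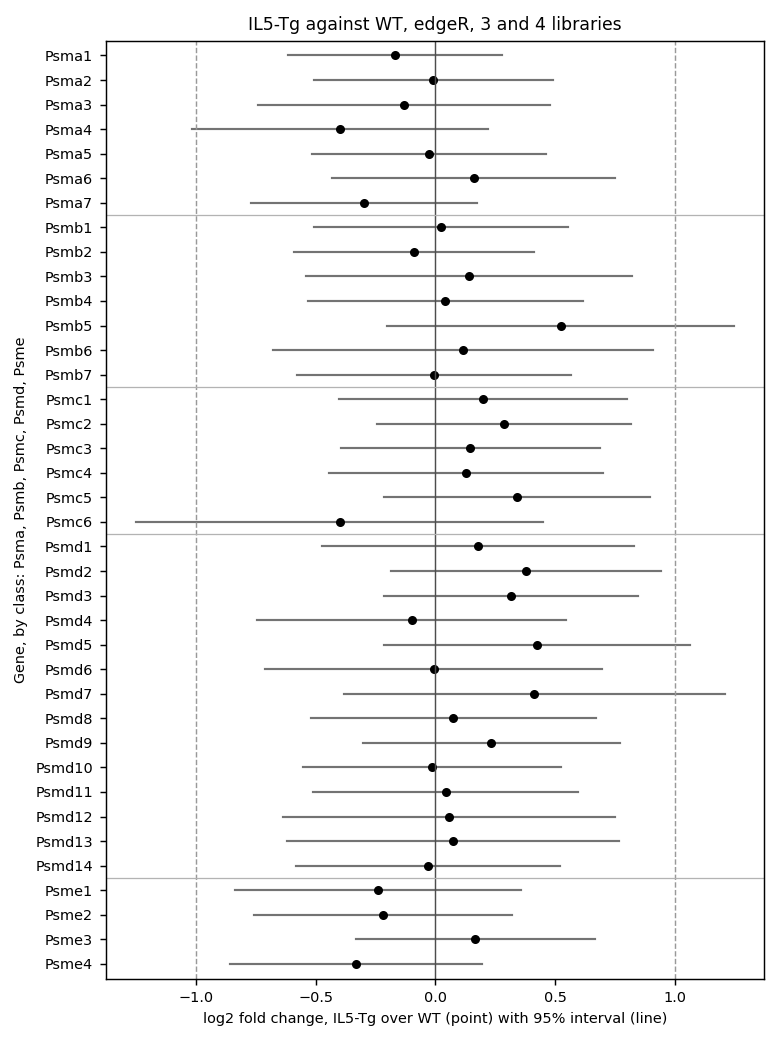
Log2 fold change of IL5-Tg over WT for 38 proteasome subunit genes by edgeR, with the 95% interval as a line and dashed lines at 2-fold. Psma8, whose interval runs from -4.82 to 2.15, is left out. Every interval crosses 0, and 5 of the 38 reach past a dashed line: Psma4, Psmb5, Psmc6, Psmd5 and Psmd7.

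Promoter windows of RefSeq genes (GRCm38.p6; 250 bases before to 50 after the start) were matched by symbol for 33 of the 40 genes. They were searched on both strands for TGACNNNGC, a form of the antioxidant-type element that the Nfe2l1 and Nfe2l2 factors bind with small Maf partners, and for CCGGAAG, a form of the ETS site. These motifs do not overlap one another in the windows shown. The first occurred in 6 of 33 members (18.2%), 14% of all 27025 genes with a window and 17.4% of the 9502 tested genes with one. The second occurred in 12 of 33 members (36.4%), 9.93% of all genes and 19.8% of the tested genes. It was in 9 of 17 regulatory, 1 of 12 core and 2 of 4 activator genes, differences that were not tested. The windows below are shown because these genes carry the results that follow, cut to the bases around the motif and before the RefSeq start. Capitals mark the motif, which reads as its reverse complement where it lies on the minus strand of the gene. They are the catalytic genes Psmb5 (chr14:54618009-54618067, minus strand) and Psmb6 (chr11:70525323-70525356, plus strand), with the first motif 47 and 9 bases before the start, and Psmc2 (chr5:21785166-21785222), Psmc6 (chr14:45329699-45329755) and Psmd2 (chr16:20651601-20651651), all on the plus strand, with the second motif 84, 100 and 26 bases before it. The end of the Psmb5 window lies within the longer first exon of GENCODE vM21.
Psmb5: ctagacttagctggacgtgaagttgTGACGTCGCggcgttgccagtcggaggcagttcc
Psmb6: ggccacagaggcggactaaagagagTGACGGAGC
Psmc2: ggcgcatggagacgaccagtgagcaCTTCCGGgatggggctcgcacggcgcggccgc
Psmc6: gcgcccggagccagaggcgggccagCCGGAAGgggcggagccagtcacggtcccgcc
Psmd2: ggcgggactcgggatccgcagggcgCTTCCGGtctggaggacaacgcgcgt
Psmc6 also holds the first motif, 227 bases before its start. A match describes these letters only and shows no binding.

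The catalytic beta subunits were expressed in every library. Psmb5, which carries the chymotrypsin-like site, had 79.3, 153 and 68.1 CPM in WT replicates 1, 2 and 3, against 171, 145, 159 and 99.7 CPM in IL5-Tg replicates 1 to 4. WT replicate 2 lay among the IL5-Tg libraries, and IL5-Tg replicate 4 was nearer the other WT libraries, so the groups overlapped. WT averaged 100.2 ± 46.3 CPM (SD, n = 3) and IL5-Tg 144 ± 31.3 CPM (SD, n = 4), with a log2 fold change of 0.52 ± 0.33 (SE; adjusted p = 0.739 in edgeR). This was the most positive log2 fold change of the 39 genes, and its interval allowed 0.868-fold to 2.37-fold. Without WT replicate 2 the value was 0.99 (adjusted p = 0.131 in edgeR). Of the transcript's 42-base stretches, the length of a read, 62.2% also occur in transcripts of other genes (52% in Gm3375), and how such reads were counted is not given in the sources used here.

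Psmb6, with the caspase-like site, had levels of 227, 431 and 159 CPM in the WT libraries and at 387, 279, 310 and 203 CPM in the IL5-Tg libraries. The highest and the lowest of these values were both WT. Its log2 fold change was 0.11 ± 0.36 (SE; adjusted p = 0.96 in edgeR). Psmb7, with the trypsin-like site, was at 178, 265 and 158 CPM in WT and 241, 202, 185 and 168 CPM in IL5-Tg libraries. Here too every IL5-Tg value lay inside the WT range, and the log2 fold change was -0.01 (adjusted p = 0.997 in edgeR). Reads of Psmb7 are uncertain where its transcripts overlap those of Nek6 (29.3% of its 42-base stretches).

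The structural beta subunits gave small differences of both signs. Psmb3 was at 106, 198 and 92.9 CPM in WT and 162, 146, 168.5 and 107 CPM in IL5-Tg libraries, a log2 fold change of 0.14 (adjusted p = 0.947 in edgeR). Psmb2 was at 107, 115 and 76.8 CPM in WT and 89.95, 86.6, 99.6 and 98.0 CPM in IL5-Tg libraries, a log2 fold change of -0.09 (adjusted p = 0.955 in edgeR). Both genes had IL5-Tg values that lay wholly within the WT range. Psmb1 and Psmb4 were at 0.02 and 0.04, and Psmb4 had the highest mean level of the core genes, at 355 CPM. Over the 7 tested beta genes 5 values were positive, with a median of 0.04. Psmb11, the beta subunit known from the thymic cortex, had 0 reads in all libraries and so took no part in the test. A count of 0 allows up to 0.156 to 0.317 CPM by a floor of 3 reads per library, which covers counting error only. That floor takes each read as an independent count. It may be too low where the most common low count was above 1 (5, 8 and 12 in WT, 4 in IL5-Tg replicate 4).

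The alpha ring genes leaned the other way. Of 8 tested alpha genes 7 had a negative log2 fold change, with a median of -0.15, and 0 passed. The median stayed negative under RLE and upper-quartile scaling (-0.129 and -0.126), was -0.00391 with a GC correction and 0.05 without WT replicate 1. Psma7 was at 217, 215 and 221 CPM in WT and at 173, 157, 166 and 211 CPM in IL5-Tg libraries. The WT libraries lay close together and all above the IL5-Tg libraries, with a gap to IL5-Tg replicate 4 that was small beside the spread of the IL5-Tg group. The log2 fold change was -0.30 ± 0.21 (SE; adjusted p = 0.79 in edgeR). Psma1, named after its values were seen, was the other gene whose groups did not overlap. It was at 138, 132 and 128 CPM in WT and 112, 113, 121 and 126 CPM in IL5-Tg libraries (log2 fold change -0.17; adjusted p = 0.9 in edgeR). These were 2 of 39 genes with all IL5-Tg values below all WT values and 0 above, where 4.6% of all tested genes lay wholly below and 4.76% wholly above. With upper-quartile scaling or a GC correction the count below was 0, and the share of all tested genes 4.42% and 5.09%. The log2 fold change of Psma7 was -0.27 with upper-quartile scaling and -0.48, more negative than in the main fit, with the GC correction.

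Psma4 had the smallest p of the alpha genes. It stood at 121 CPM in WT replicate 1 and at 60.7 and 66.4 CPM in WT replicates 2 and 3, against 60.7, 54.9, 66.8 and 68.8 CPM in the IL5-Tg libraries. A single WT library was high, and the others lay among the IL5-Tg values. The log2 fold change was -0.40 ± 0.28 (SE; adjusted p = 0.783 in edgeR). Psma6 was the 1 alpha gene with a positive value, 0.16.  Psma8, an alpha subunit known from the testis, was near absent. It had 28, 8 and 0 reads in the WT libraries and 9, 0, 2 and 7 reads in the IL5-Tg libraries, so the fitted value of -1.34 (adjusted p = 0.898 in edgeR) rests on very few reads.

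The ATPases of the regulatory particle, the motor that unfolds substrates, had 5 positive values of 6. Psmc5 was at 114, 158 and 95.1 CPM in WT and 186, 144, 153 and 138 CPM in IL5-Tg libraries, a log2 fold change of 0.34 ± 0.25 (SE; adjusted p = 0.796 in edgeR). WT replicate 2 again lay among the IL5-Tg values. Psmc2 showed the same order of WT libraries, at 132, 165 and 107 CPM, with 190, 172, 156 and 140 CPM in IL5-Tg libraries (log2 fold change 0.29 ± 0.24 SE). Psmc6 was the only one of the 6 ATPase genes with its highest value in WT replicate 1. It was at 70.1, 25.02 and 33.0 CPM in WT and 24.4, 24.9, 35.9 and 44.4 CPM in IL5-Tg libraries, with a log2 fold change of -0.40 ± 0.38 (SE; adjusted p = 0.866 in edgeR). Without WT replicate 1 it was 0.17. Psmc2, Psmc6 and Psmd2, whose windows with CCGGAAG are printed above, thus had values of both signs.

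Among the 14 non-ATPase genes, which include the scaffold, the lid and the ubiquitin receptors, 10 values were positive, with a median of 0.07. Psmd2, a large scaffold subunit, was at 188, 333 and 233 CPM in WT and 344, 325, 351 and 286 CPM in IL5-Tg libraries. The IL5-Tg values were close together, and WT replicate 2 lay among them (log2 fold change 0.38 ± 0.25 SE; adjusted p = 0.766 in edgeR). Psmd5, an assembly chaperone of the base, was at 19.5, 21.9 and 13.5 CPM in WT and 27.0, 20.4, 26.5 and 24.5 CPM in IL5-Tg libraries (log2 fold change 0.42 ± 0.29 SE; adjusted p = 0.768 in edgeR). Psmd3, a lid subunit, was at 95.5, 142 and 104 CPM in WT and 158, 134, 155 and 119 CPM in IL5-Tg libraries (log2 fold change 0.31; adjusted p = 0.804 in edgeR). In all 3 genes WT replicate 2 was the highest WT library and overlapped the IL5-Tg group.

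Psmd14, the enzyme of the lid that cuts off ubiquitin chains, gave a value near 0. It was at 84.0, 59.98 and 56.7 CPM in WT and 52.4, 67.0, 62.7 and 79.9 CPM in IL5-Tg libraries (log2 fold change -0.03 ± 0.25 SE; adjusted p = 0.985 in edgeR), and its interval allowed 0.668-fold to 1.43-fold. Psmd7, named after its values were seen, was set apart by a single library. Its level was 26.9 CPM in WT replicate 3 and 76.2 to 95.5 CPM in the other 6 libraries, and its log2 fold change was 0.41 ± 0.36 (SE; adjusted p = 0.844 in edgeR). The other non-ATPase genes had log2 fold changes from -0.10 to 0.23.

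The activators had negative values apart from Psme3, the nuclear activator subunit, at 0.17. Psme1 was the most abundant of all 40 genes in CPM. It encodes a subunit of the interferon-inducible activator, together with Psme2. It was at 311, 515 and 461 CPM in WT and 397, 451, 319 and 288 CPM in IL5-Tg libraries (log2 fold change -0.24; adjusted p = 0.894 in edgeR). Psme2 was at 187, 243 and 174 CPM in WT and 182, 214, 139 and 159 CPM in IL5-Tg libraries (log2 fold change -0.22; adjusted p = 0.894 in edgeR). Both genes overlapped between groups. They lie close to each other on chromosome 14, at 55578123 to 55581529 (plus strand) and 55587441 to 55591113 (minus strand; mm10, GENCODE vM21). Psme2 shares 58.2% of its 42-base stretches with the near copy Psme2b, which had 123 to 330 reads per library, so the division of reads between them is uncertain. Psme4, a large activator linked to histone breakdown and spermatogenesis, was at 65.1, 57.8 and 80.2 CPM in WT and 45.4, 47.8, 57.4 and 64.6 CPM in IL5-Tg libraries (log2 fold change -0.33 ± 0.24 SE; adjusted p = 0.79 in edgeR).

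**Figure D2:**
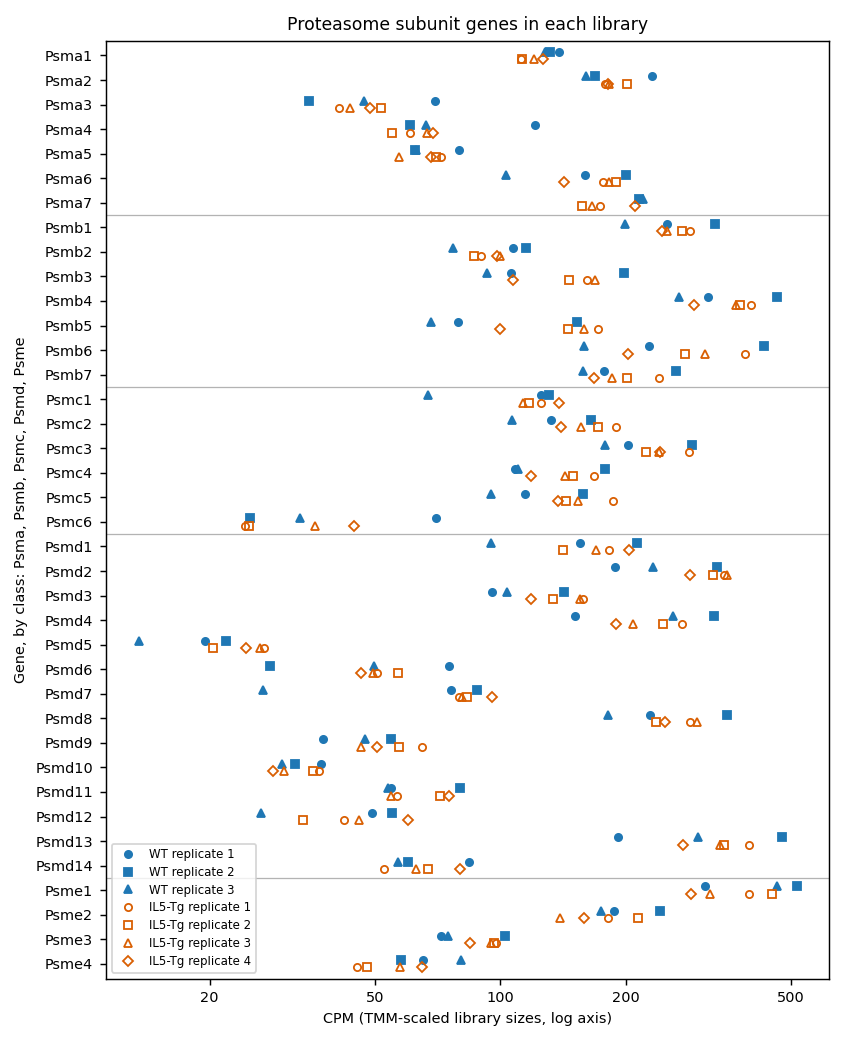
Level of 38 proteasome subunit genes in each library, in CPM on a log axis, with WT libraries as filled and IL5-Tg libraries as open symbols. Only Psma1 and Psma7 have groups that do not overlap, and WT replicates 2 and 3 often mark the ends of a gene's range. Psma8 and Psmb11, at or near 0, are not drawn.

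The WT libraries spanned a wider range of proteasome levels than the IL5-Tg libraries. Summed over the 40 genes, the level was 5114, 6950 and 4667 CPM in WT replicates 1, 2 and 3 and 6297, 5839, 5728 and 5258 CPM in IL5-Tg replicates 1 to 4. WT averaged 5577 ± 1210 CPM (SD, n = 3) and IL5-Tg 5781 ± 427 CPM (SD, n = 4), and all IL5-Tg sums lay within the WT range. WT replicate 2 was the highest library for 17 of the 39 tested genes, and WT replicate 3 the lowest for 20. For 19 genes (48.7%) all 4 IL5-Tg values lay within the range of the 3 WT values, as they did for 32.4% of all tested genes. The median SD of log2(CPM + 1) over the members was 0.388 among WT and 0.191 among IL5-Tg libraries, and 0.591 and 0.335 over all tested genes. The SD was larger among WT libraries for 89.7% of the members and 80.6% of all tested genes.

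Dropping either of these WT libraries moved the summary in opposite directions, without a call in either case. Without WT replicate 2 the median log2 fold change of the members was 0.285, against 0.105 over all tested genes, and 25 of 39 were positive. In that fit 13 members had all IL5-Tg values above both remaining WT values, where the share of all tested genes was 15.4%. The smallest unadjusted p-values in edgeR were those of Psmb5, Psmd2, Psmc5 and Psmd3, the 4 of 39 members under 0.05. The share of all tested genes under 0.05 in that fit is not given here. In the fit of all 7 libraries it was 1123 of 12428, so the 4 cannot be read as particular to the members. Without WT replicate 3 the median was -0.06 and 13 of 39 were positive. WT replicate 3 was also the library with the fewest fibroblast marker reads and the fewest genes detected, 10877 against 12759 to 14391 in the others, and the part of these in its proteasome level was not tested.

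**Figure D3:**
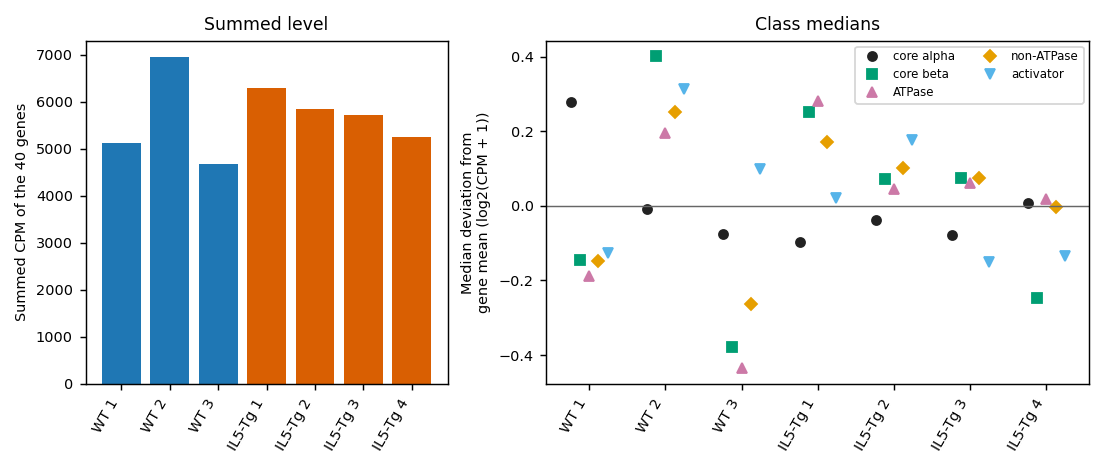
Left, summed CPM of the 40 proteasome subunit genes in each library. Right, for each library and class, the median deviation of the tested genes from their own mean over the 7 libraries on the log2(CPM + 1) scale. WT replicate 2 has the highest sum (6950 CPM) and WT replicate 3 the lowest (4667 CPM), and in WT replicate 1 the alpha class lies at 0.28 while the other classes lie below 0.

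The classes did not move together in each library. In WT replicate 1 the alpha genes lay 0.28 above their own means by the median, while the beta, ATPase, non-ATPase and activator genes lay at -0.15, -0.19, -0.15 and -0.13. In WT replicate 3 the beta genes and ATPases were at -0.38 and -0.44, and the alpha genes and activators at -0.08 and 0.10. In the IL5-Tg libraries the class medians stayed between -0.25 and 0.28.

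Among the members, a gene's deviation varied with base composition in WT replicates 1 and 2 but little in WT replicate 3. The part of base composition in the class differences was not tested. The transcripts of alpha genes had a median GC content of 44.5%, against 48.8% to 51.3% in the other classes and 49.9% over tested genes. Across the 39 members, the correlation of a gene's deviation with its GC content was r = -0.60 in WT replicate 1, 0.51 in WT replicate 2, -0.08 in WT replicate 3, and 0.47, 0.25, 0.20 and -0.36 in IL5-Tg replicates 1 to 4. Over all tested genes with a known GC content the same correlations were -0.42, 0.30, -0.17, 0.37, 0.18, 0.19 and -0.22. These describe genes within a library, which share its depth and preparation and are not independent. Psmc6, with the lowest GC content of the members at 37%, lay 1.01 above its mean (log2 scale) in WT replicate 1, and Psmd13, at 53.4%, had a deviation of -0.74. With counts corrected for GC content, an alternative chosen after seeing the data, Psmc6 was at 0.11 and Psmd14 at 0.17, the alpha median at -0.00391, 29 of the 39 values were positive, and again 0 passed.

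**Figure D4:**
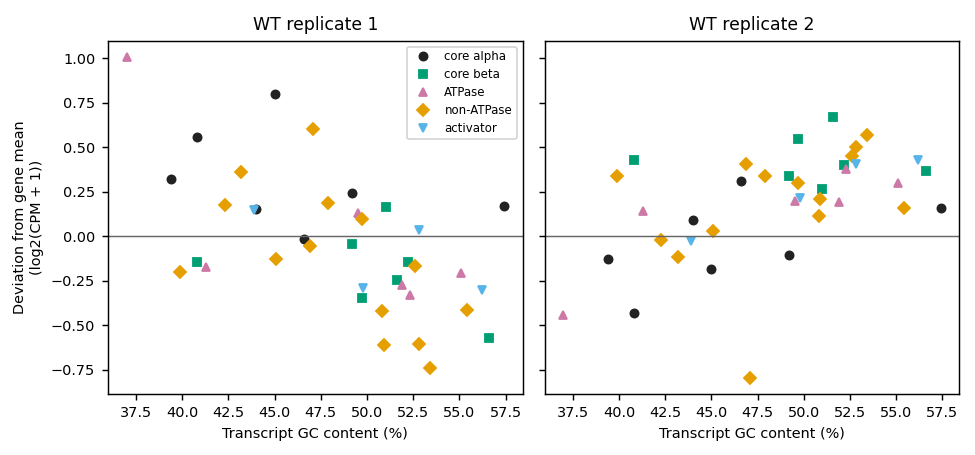
Deviation of each of 38 proteasome subunit genes from its mean over the 7 libraries, on the log2(CPM + 1) scale, against the GC content of its longest transcript, in WT replicates 1 and 2. Symbols mark the class. Genes low in GC lie high in WT replicate 1 (r = -0.60 over 39 genes) and low in WT replicate 2 (r = 0.51). Psma8 is left out of the picture.

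Levels per kilobase of exon differed widely among the genes, some of which (Psmd5, Psmd9, Psmd10) encode assembly chaperones rather than lasting subunits. Over 38 genes, Psma8 aside, the mean level ran from 3.03 CPM per kilobase for Psmd5 to 182 for Psmb4, a 60.1-fold range. Psme1 (177), Psmb6 (152) and Psmb5 (139) followed Psmb4. The median was 79.8 for beta genes, 67.6 for activators, 62.4 for ATPases, 50.7 for alpha genes and 23.1 for non-ATPases. The length counts every exon in GENCODE vM21 (7230 bases for Psmd5), so the value per kilobase depends on the isoforms annotated. Isoform use was not measured. Psmd5 also had the lowest mean of the 38 genes before scaling for length, at 21.9 CPM. Reads shared with other genes bear on this as well. Of the 39 tested genes 18 shared no 42-base stretch with another gene, while 4 shared over 50%, namely Psma5, Psmb3, Psmb5 and Psme2.

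None of the inducible subunits that replace the catalytic ones passed. Psmb8, Psmb9 and Psmb10 take the places of Psmb5, Psmb6 and Psmb7 in the immunoproteasome, and 0 of the 3 passed, with log2 fold changes of -0.11, 0.03 and -0.33. The log2 ratio of Psmb8 over Psmb5 was 2.02, 2.04 and 3.06 in WT and 1.59, 2.11, 1.33 and 1.75 in IL5-Tg libraries, which overlap because of IL5-Tg replicate 2. The ratios of Psmb9 over Psmb6 (-2 to -0.56 in WT, -1.88 to -1.23 in IL5-Tg) and of Psmb10 over Psmb7 (-0.29 to 0.68 and -0.47 to 0.25) overlapped too. These are ratios of CPM, not scaled for length, and serve only to compare libraries.

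Other genes of the pathway gave 0 calls among 43 tested, the immunoproteasome genes included, with a median log2 fold change of 0.09. Of all tested genes 0.338% were called higher and 0.0724% lower. Before adjustment 1 of the 43 had a p under 0.05 in edgeR, against 1123 of all 12428 tested genes. DESeq2 and limma-voom called 0 of the 43. Of the assembly factors, which help to build the core and base, 7 were tested, with 4 positive and 3 negative values. Psmf1, a regulator of the core, was at 28.5, 32.7 and 30.5 CPM in WT and 34.2, 45.7, 37.8 and 39.3 CPM in IL5-Tg libraries, with all IL5-Tg values above the WT values (log2 fold change 0.36 ± 0.24 SE; adjusted p = 0.756 in edgeR). Psmg2, a chaperone of the alpha ring, had the most positive value, 0.86 ± 0.51 (SE; adjusted p = 0.721 in edgeR), from 12.1, 5.81 and 2.74 CPM in WT and 8.99 to 15.3 CPM in IL5-Tg libraries. Its value was 1.56 without WT replicate 1 and 0.51 without WT replicate 3.

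The gene with the unadjusted p under 0.05 was Nfe2l2, which encodes the factor that switches on antioxidant genes. It was at 130.5, 92.8 and 153 CPM in WT and 79.0, 66.1, 65.4 and 95.9 CPM in IL5-Tg libraries, with a log2 fold change of -0.71 ± 0.25 (SE; adjusted p = 0.423 in edgeR). The groups overlapped through WT replicate 2 and IL5-Tg replicate 4. Its relative Nfe2l1 was at 95.7 ± 21.5 CPM (SD, n = 3) and 104 ± 15.2 CPM (SD, n = 4; adjusted p = 0.94 in edgeR). Maff, a small partner of both factors, was at 0.70 (adjusted p = 0.629 in edgeR), and 6 of the 8 genes of transcription and its processing were positive. Of the 10 other particle subunits and associated enzymes 5 were positive. Their smallest p-values belonged to Sem1, a small lid subunit listed as Shfm1, at -0.53 (adjusted p = 0.584 in edgeR), and Zfand2a, a stress-induced proteasome-binding protein, at -0.65 (adjusted p = 0.62 in edgeR). For both, all IL5-Tg values lay below all WT values. Sem1 was at 147 to 179 CPM in IL5-Tg and 188 to 321 CPM in WT libraries. The groups of Zfand2a nearly met, at 11.3 to 19.02 CPM in IL5-Tg and 19.11 to 30.9 CPM in WT libraries.

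Of 15 genes for ubiquitin and its shuttles, 8 were positive, with a median of 0.12. Vcp, the segregase that pulls ubiquitin-tagged proteins from complexes, was at 213, 282 and 252 CPM in WT and 345, 332, 304 and 294 CPM in IL5-Tg libraries, all above the WT values (log2 fold change 0.36 ± 0.22 SE; adjusted p = 0.736 in edgeR). Rps27a, a fusion of ubiquitin and a ribosomal protein, was at 822, 868.5 and 482 CPM in WT and 508, 574, 418 and 577 CPM in IL5-Tg libraries (log2 fold change -0.48; adjusted p = 0.694 in edgeR). Over the 5 related lists, 2 genes lay wholly above and 3 wholly below WT among 43, beside the 4.76% and 4.6% of all tested genes.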

How the data were processed

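RNA was measured in 7 libraries of sorted mouse eosinophils, 3 WT and 4 IL5-Tg. The authors deposited 1 table of unnormalized counts, with genes as symbols and 1 column per library. The build mm10 and the tools STAR, Bowtie and bcl2fastq 2.20 are named, without roles, per the submitters' processing notes. The counting program, its annotation and its strand setting were not given in the sources used here. The kit was a stranded one, per the labels' protocols. Each of the 7 columns matched 1 sample by title. The 2 rows that name no gene were left out. The ambiguous row held 0.7505% to 0.9428% of the reads. The no-feature row held 15.6% to 18.2% in WT and 9.15% to 13.0% in IL5-Tg libraries, without overlap. The part of this no-feature difference in the results was not tested.

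All 24421 genes entered edgeR 4.0.16 in R 4.3.3 (TMM, filterByExpr, robust quasi-likelihood F test, genotype as the only term, all 7 libraries). P-values were adjusted by Benjamini-Hochberg over all 12428 tested genes. The standard error is the size of the log2 fold change over the root of F, and intervals used the test's degrees of freedom. The procedure was tested on simulated data. Positions, exon lengths, GC content and shared 42-base stretches came from GENCODE vM21. Libraries are numbered in accession order, which pairs nothing. The members and lists were chosen with earlier results of these data known. Named were, per class, the 3 smallest p-values, the extremes of level and fold change, the catalytic genes, Psmd14, and per related list the called genes or 2 smallest p-values. Alternatives were RLE and upper-quartile scaling, DESeq2 1.42.0 and limma-voom, which was run with quality weights for the libraries (limma 3.58.1). Others were no filter, a mean of at least 10 CPM, no robust estimation, the start of sample titles as a term, counts divided by the most common low count, leaving out each library and, added after seeing the data, a GC correction.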

Additional observations from a re-analysis of the deposited data

How the results depend on the processing

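Under all 17 alternative settings 0 proteasome members were called. Few genes were called at all. The number called higher ran from 14 of 12260 tested (without IL5-Tg replicate 2) to 145 of 16098 (DESeq2), and the number called lower from 1 to 79. Of 473 recomputed values for single named genes 24, from 7 genes, had the other sign, and the cause was not tested. Psmb7 was at 0.00458 with RLE scaling, 0.00236 with upper-quartile scaling, 0.00494 with DESeq2, 0.0209 with limma-voom, 0.0103 without a filter, 0.00795 with divided counts and 0.179 with the GC correction. With the GC correction Psmc6 was at 0.105 and Psmd14 at 0.166. With the start of the titles as a term Psmb3 was at -0.11 and Psmb6 at -0.319, and Psmb8 was at 0.012 by limma-voom. Over the fits that each left out 1 library, the log2 fold change ran from -0.226 to 0.0521 for Psmb2, -0.044 to 0.576 for Psmb3, -0.145 to 0.638 for Psmb6, -0.132 to 0.272 for Psmb7, -0.64 to 0.166 for Psmc6, -0.147 to 0.173 for Psmd14 and -0.344 to 0.098 for Psmb8. The non-ATPase median ran from -0.0148 (without WT replicate 3) to 0.397 (without WT replicate 2). The number of members whose groups did not overlap was 0 to 13 higher and 2 to 4 lower over these fits. Without WT replicate 2 it was 13 higher and 2 lower of 39 (15.4% and 14.9% of all tested genes), and without WT replicate 3 it was 0 higher and 4 lower (8.29% and 8.37%). Without WT replicate 1 it was 1 higher and 3 lower (12% and 8.16%). Leaving out IL5-Tg replicates 1 to 4 in turn gave 0, 1, 0 and 0 higher (5.45%, 7.73%, 5.38% and 8.55%). The numbers lower were 2, 2, 2 and 3 (5.01%, 6.4%, 5.6% and 7.61%). The number lower was 1 with RLE scaling, DESeq2 or divided counts (4.34%, 3.42% and 4.66% of all genes in those fits), and 0 with upper-quartile scaling, a mean of at least 10 CPM or the GC correction (4.42%, 5.25% and 5.09%). On the 12428 filtered genes limma-voom called 16 higher and 6 lower, against 42 and 9 by edgeR. DESeq2, run on all 16098 genes with a read, called 145 and 79, against 56 and 16 by edgeR on those genes. No paired analysis was possible by replicate number, because those numbers follow accession order and only name a library. Title starts 82 and 86 each hold 1 WT and 1 IL5-Tg library, and the fit with the title start as a term, given in the report, uses them without knowledge of what they mark. The fits rest on 3 and 4 libraries, with a biological coefficient of variation of 52.5% over all genes. The intervals given are not adjusted for the number of genes tested and are not limits of detection. Differences larger than these intervals may also have gone uncalled.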
